A study of Homo sapiens with 12 samples.

Results

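The genes described here encode the proteins of the cytosolic ribosome, the RPL genes of the large 60S subunit and the RPS genes of the small 40S subunit. They were chosen by gene symbol alone, as rows of both deposited expression tables named RPL or RPS with a number, optionally followed by A, X or L, together with RPLP0, RPLP1, RPLP2 and RPSA and without RPS27L. This gave 81 of the 18987 genes listed in both tables, 48 RPL genes and 33 RPS genes. All 81 passed the filter on low values, a mean of 10 or more over the libraries compared, although RPL3L and RPS10L did so with values near it.

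The study used IMR5 cells, a long-established human neuroblastoma line in which the oncogene MYCN is amplified, and total RNA from 4 groups of 3 libraries each was sequenced. In the first experiment cells received either the solvent DMSO or selinexor, a drug that binds and blocks the export receptor XPO1, at 100 nM for 24 h. The labels give no time for DMSO. In the second experiment cells were nucleofected with control siRNA or with 1 siRNA against XPO1, and RNA was taken at 72 h. All libraries come from this single line, and no label calls the replicates separate cultures. The p-values below thus speak of the spread among these libraries, part or all of which may be technical.

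Each ribosome holds one copy of most of these proteins, and their messages are among the most abundant in a dividing cell. The proteins are made in the cytoplasm, imported into the nucleolus, built onto ribosomal RNA, and leave the nucleus as part of pre-40S and pre-60S particles, both of which use XPO1 as an export receptor. The messages share a run of pyrimidines that begins with C at the 5′ end, the terminal oligopyrimidine (TOP) motif, through which mTOR and LARP1 control their translation and stability. Amplified MYCN is known to drive ribosome production in neuroblastoma.

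The start sites of the members whose levels are described most closely show how much of this motif they share. RefSeq start-site entries (build GRCh38.p14) were found for 62 of the 81 genes. Each sequence below runs 5′ to 3′ from 10 bases before the annotated first transcribed base and covers 30 bases. Capitals mark the pyrimidine tract, here a C followed by at least 4 unbroken C or T that begins within 20 bases of the start.
RPS19, chr19:41860245-41860274, plus strand: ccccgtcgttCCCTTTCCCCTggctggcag
RPL13A, chr19:49487598-49487627, plus strand: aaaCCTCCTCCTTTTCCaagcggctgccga
RPL13, chr16:89560672-89560701, plus strand: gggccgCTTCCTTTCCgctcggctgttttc
RPLP1, chr15:69452808-69452837, plus strand: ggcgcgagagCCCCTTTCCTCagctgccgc
RPL10A, chr6:35468391-35468420, plus strand: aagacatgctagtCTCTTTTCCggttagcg
RPS26, chr12:56041908-56041937, plus strand: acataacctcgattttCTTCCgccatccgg
RPL12, chr9:127451387-127451416, minus strand: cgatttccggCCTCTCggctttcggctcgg
RPSA, chr3:39406710-39406739, plus strand: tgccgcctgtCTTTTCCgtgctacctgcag
RPLP0, chr12:120201092-120201121, minus strand: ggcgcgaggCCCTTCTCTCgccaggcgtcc
RPS6, chr9:19380217-19380246, minus strand: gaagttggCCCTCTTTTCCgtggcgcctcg
In RPS19, RPLP1, RPL12 and RPSA the tract begins exactly at the annotated start, while in RPL10A and RPS26 it begins 3 and 6 bases after it. RPS19 and RPLP1 each have a tract of 11 bases, and the tract of RPS26 has 5. Both genes that rose and genes that fell in the comparisons below are in this set.

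Such a tract was found in 59 of the 62 genes (95.2%), compared with 54.9% of all 27305 genes with entries of the same length. A C exactly at the start followed by 4 or more C or T was found in 46 of 62 (74.2%), compared with 5.14% of all genes. Its share was alike in RPL genes (73.7% of 38) and RPS genes (75.0% of 24). Within the whole window of 250 bases before to 50 after the start, on either strand, CCGGAA (the core of sites for ETS factors such as GABPA) was found in 56.5% of the members and 20.1% of all genes. Its reverse complement, TTCCGG, can overlap the end of a tract, as in RPL10A. AAGATGGC, a YY1 motif, was found in 9.68% of members and 3.52% of all genes. The E-box CACGTG, a motif bound by MYC proteins, was found in 6.45% and 8.77%, and TATAAA in 8.06% and 14.0%. A match is a description of these letters only.

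The deposited values are normalized read counts, scaled separately in each experiment, so levels are compared within an experiment. Library depth, estimated from the steps between low values, was 39.5 to 40.9 M reads with DMSO, 26.8 to 33.8 M with selinexor, 40.6 to 54.0 M with control siRNA and 33.5 to 55.8 M with XPO1 siRNA. XPO1, the targeted gene, had values of 18568, 18950 and 18908 with control siRNA and 4260, 4377 and 4397 with XPO1 siRNA, a fall of 4.33-fold. Of 10 adrenergic neuroblastoma markers 9 were listed in the selinexor table and 10 in the knockdown table, and 7 of 9 tested rose in each comparison, while no leukocyte marker was listed. Of 4 endothelial markers 2 were listed, with sums of 41.3 to 44.2 (DMSO), 66.6 to 91.2 (selinexor), 41.4 to 53.2 (control siRNA) and 78.6 to 93.8 (XPO1 siRNA), and CDH5 rose in both comparisons. Of 5 fibroblast markers 4 and 3 were listed in the 2 tables, with sums of 1163 to 1315, 930.1 to 1945, 1707 to 1981 and 1421 to 1458 in the same order. PDGFRB and LUM fell in both comparisons and COL1A1 with XPO1 siRNA. The part of these in the results was not tested. In bulk RNA, fewer cells of a type and less RNA per cell cannot be told apart.

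The 81 members held 3.56% to 3.65% of the deposited total in the DMSO libraries and 3.86% to 4.11% in the selinexor libraries, without overlap. Their share was 4.09% to 4.27% with control siRNA and 4.15% to 4.27% with XPO1 siRNA, where the groups overlapped. The share of RN7SL1 and RN7SL2, abundant noncoding RNAs of the signal recognition particle, also differed, from 9.40% to 9.72% with DMSO and 12.6% to 16.0% with selinexor. With those 2 genes left out of the total the members held 3.94% to 4.04% and 4.41% to 4.88%. Reads of the members can be split with near-identical copies: 61 members had pseudogene rows in the selinexor table, 243 in all. In RPL7, RPL9, RPL13A, RPL21, RPL41, RPS3A, RPS7 and RPSA those rows held over 50% of the summed value, so values of these genes are uncertain.

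The first selinexor library stood apart from the other two in this gene family. Its members' log2 differences from the DMSO mean had an SD of 0.466 over the 81 genes, compared with 0.197 and 0.308 in replicates 2 and 3 and 0.0628 to 0.148 in the DMSO libraries. These SDs include RPL3L and RPS10L, whose values near the filter can give large log2 differences. Of the selinexor libraries, RPS10L was highest in the first and RPL3L in the third, and SDs without these genes were not computed. The first selinexor library was the lowest of the 3 for 53 members and the highest for 21. Its median difference was −0.25 in the members with shorter transcripts and −0.04 in those with longer ones. It also had the lowest estimated depth of the 12 libraries, 26.8 M reads. Most counts of calls with selinexor, and the values of many named genes, are therefore given with and without it.

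**Figure D1:**
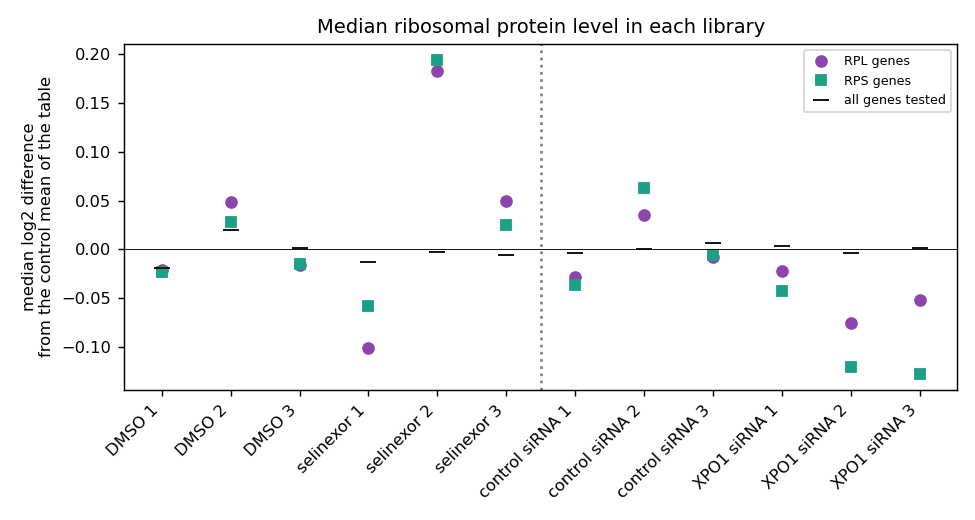
Median log2 difference of the 48 RPL genes (circles), the 33 RPS genes (squares) and all genes tested (dashes) from the mean of the control libraries of the same table, for each of the 12 libraries. The RPL and RPS medians lie close to each other in each library: both are below 0 in selinexor replicate 1 (−0.10 and −0.06), at 0.18 and 0.19 in replicate 2, and, with the deposited scaling, below 0 in all 3 XPO1 siRNA libraries.

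The first comparison asks what 24 h of XPO1 inhibition did to the messages of the ribosome. The median member lay near the DMSO level: the median log2 difference from DMSO was 0.02 over the 81 members, beside −0.01 over all 18128 genes tested. The limma test called 5 members higher and 3 lower, that is, past an adjusted p of 0.05 after log2(value + 1). Over all genes tested it called 22.9% higher and 26.3% lower. The members that rose were RPS19, RPL13A, RPL13, RPL18 and RPLP1, and those that fell were RPS26, RPL39L and RPL10A. Of the 48 RPL genes 4 rose and 2 fell, and of the 33 RPS genes 1 rose and 1 fell, with medians of 0.02 in both.

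**Figure D2:**
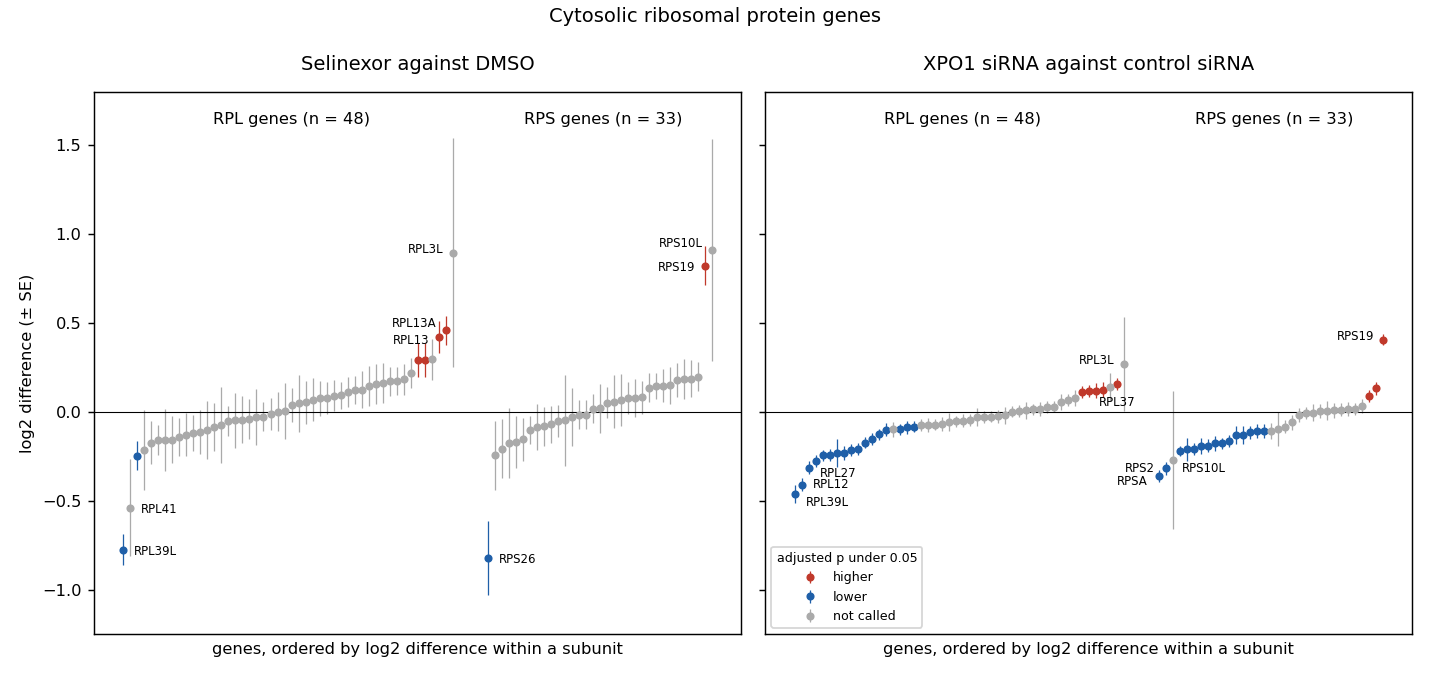
Log2 difference with its SE for each RPL and RPS gene, ordered by size within a subunit, for selinexor against DMSO (left) and XPO1 siRNA against control siRNA (right). Colour marks genes past an adjusted p of 0.05. RPS19 stands at 0.82 and 0.41, and error bars are wider with selinexor (median SE 0.107) than with XPO1 siRNA (median SE 0.0365). RPL3L and RPS10L have few reads.

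RPS19, which encodes a protein of the 40S head and is the gene most often mutated in Diamond-Blackfan anaemia, lies at chr19:42363988-42376995 (hg19, plus strand). Its values were 16512, 18157 and 17267 with DMSO and 35219, 30061 and 27068 with selinexor. The groups did not overlap, and the lowest selinexor library was well above the highest DMSO library. Its log2 difference was 0.82 ± 0.11 (SE), or 1.77-fold, with an adjusted p of 0.000433. Without the first selinexor library it was 0.72 (adjusted p = 2.54e-07). Over all alternatives the adjusted p stayed between 2.54e-07 and 0.00403. The 2 pseudogene rows named for RPS19 held 0.829% of the summed value of the parent and its pseudogenes.

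RPL13A, a 60S protein whose introns hold 4 small nucleolar RNA genes, lies at chr19:49990811-49995566 (hg19, plus strand). It had 11563, 12307 and 11558 with DMSO and 17058, 16696 and 15026 with selinexor, a rise of 0.46 ± 0.08 on the log2 scale (adjusted p = 0.00218). RPL13, another 60S protein and host of 1 such RNA gene, lies at chr16:89627065-89630951 (hg19, plus strand). Its values were 9869, 10217 and 10142 with DMSO and 14997, 13209 and 12440 with selinexor, a rise of 0.42 ± 0.09 (adjusted p = 0.00485). Neither gene's groups overlapped, and the first selinexor library was the highest for both. Without that library the differences were 0.42 for RPL13A and 0.35 for RPL13, and both stayed called under every alternative run, with adjusted p-values of at most 0.0186 and 0.0286. Of the summed RPL13A value, 62.1% lay in 6 rows of pseudogenes, so its reads may be split among near-identical copies.

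RPLP1, one of the acidic stalk proteins that bind elongation factors, lies at chr15:69745123-69748256 (hg19, plus strand). It had 26225, 26022 and 26528 with DMSO and 35233, 33149 and 28469 with selinexor, 0.29 ± 0.10 on the log2 scale (adjusted p = 0.0337). RPL18, a 60S protein named after its values were seen, had 16402, 17236 and 16336 and 22520, 20527 and 18342, a log2 difference of 0.29 ± 0.09 (adjusted p = 0.0308). In both genes every selinexor library was above every DMSO library, and without the first selinexor library the differences were 0.23 and 0.22 (adjusted p = 0.00809 and 0.00482). Both calls were lost without any 1 DMSO library or without selinexor replicate 2, and over all alternatives the adjusted p ran from 0.00809 to 0.114 for RPLP1 and from 0.00482 to 0.398 for RPL18, the last with the GC trend removed. The RPL18 row overlaps rows of SPHK2 and of 1 clone-named gene, whose values summed to 537 with DMSO. The other stalk genes were not called: RPLP2 had a log2 difference of 0.11 (adjusted p = 0.304) and RPLP0, which anchors the stalk, 0.09 (adjusted p = 0.409).

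RPL39L, a paralog of the exit tunnel protein RPL39 that is best known from the testis, had the lowest log2 difference of the RPL genes. Its values were 938, 929 and 864 with DMSO and 560, 517 and 518 with selinexor, a fall to 0.585 of the control level (log2 −0.77 ± 0.09, adjusted p = 0.000203). The 3 selinexor libraries lay close together and far below DMSO, and without the first the difference was −0.81. No pseudogene row carries its name. RPL10A, the protein of the mobile L1 stalk, fell by less, from 14065, 15120 and 14483 to 11672, 13272 and 11920 (−0.25 ± 0.08, adjusted p = 0.0371). Without the first selinexor library it was −0.21. Its call was lost without any 1 DMSO library, without selinexor replicate 3, with a replicate block and with no intensity trend. Over all alternatives its adjusted p ran from 0.00598, without the first selinexor library, to 0.152.

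RPS26, which lies beside the mRNA exit channel of the 40S subunit, had low values for this family. They were 284, 318 and 337 with DMSO and 129, 240 and 176 with selinexor, without overlap. The log2 difference was −0.82 ± 0.21 (adjusted p = 0.0112). With the values of its 5 pseudogene rows added, which held 33.1% of the sum, the difference was −0.33 (adjusted p = 0.0289). The first library was again the lowest, and without it the difference was −0.60 (adjusted p = 0.00112).

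**Figure D3:**
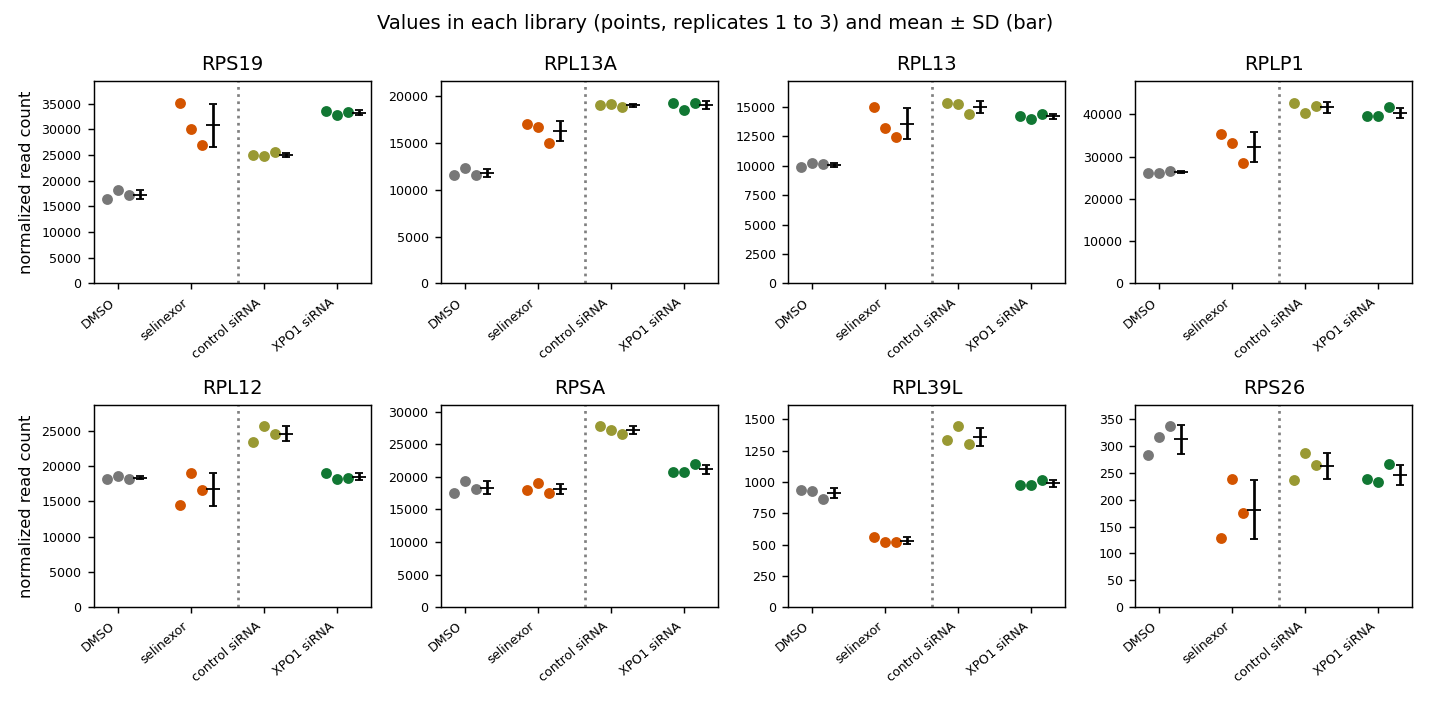
Normalized read counts of 8 members in each library (points, replicates 1 to 3 from left to right) with the group mean ± SD (bars), axes starting at 0. A dotted line divides the 2 experiments, which were scaled separately. RPS19 is above its control in both, RPL39L is below in both, and with XPO1 siRNA all 3 libraries of RPL12 and RPSA are below their control.

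Several members that the limma test did not call were among the ends of the range. RPL41, the shortest ribosomal protein, had 22658, 23791 and 21977 with DMSO and 9313, 21595 and 19257 with selinexor, a log2 difference of −0.54 ± 0.27 (adjusted p = 0.133). The groups did not overlap, but most of the difference came from the first selinexor library. Without that library the difference was −0.16 and RPL41 was called lower (adjusted p = 0.0351). RPL28 had 0.30 ± 0.11 (adjusted p = 0.0595), RPL36A −0.21 ± 0.23 (adjusted p = 0.46) and RPS13 −0.24 ± 0.20 (adjusted p = 0.328). Without the first selinexor library RPL28 was called higher, with 0.38 (adjusted p = 0.00087), and RPL36A had 0.08 (adjusted p = 0.365). The RPL28 row overlaps UBE2S and the RPS13 row overlaps PIK3C2A, and the use of strand in counting is not given in the sources used here.

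RPS6, the target of the S6 kinases, had 0.20 ± 0.08 (adjusted p = 0.0725). RPL5 and RPL11, which bind 5S ribosomal RNA before joining the 60S subunit, had 0.15 and 0.08 (adjusted p = 0.306 and 0.496). Without the first selinexor library both were called higher, with 0.26 and 0.16 (adjusted p = 0.00221 and 0.0151). RPL3L, a muscle paralog of RPL3 (adjusted p = 0.278), had values of 6.02, 2.65 and 10.8 with DMSO and 7.2, 7.4 and 27.3 with selinexor, and RPS10L (adjusted p = 0.255) 6.15, 18.3 and 6.33 and 44.7, 11.6 and 10.6. At such values no difference was detectable for these 2 genes.

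Groups that did not overlap numbered 14 members higher and 5 lower with selinexor, beside 28.8% and 32.9% of all genes tested. Of the 14, 11 were RPL genes and 3 RPS genes. Without the first selinexor library the limma test called 32 members higher and 7 lower, and the median rose to 0.12. These calls held all 8 of the genes called with every library. They were 18 RPL and 14 RPS genes higher, and 4 and 3 lower. For all genes the same fit called 28.2% higher and 33.9% lower. With libraries rescaled to equal totals 19 members were higher and 3 lower, beside 25.6% and 23.0% of all genes, with a median of 0.10, beside 0.07 for all genes. Leaving out any 1 DMSO library, or the second selinexor library, gave 3 members higher, beside 16.8% to 21.7% of all genes.

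Several members changed their call or value with the first selinexor library. RPS27, a 40S protein, had 3512, 3667 and 3528 with DMSO and 2109, 4519 and 4331 with selinexor. The first library was far below DMSO and the other two were above it. The log2 difference was −0.05 ± 0.26 with all libraries (adjusted p = 0.892) and 0.31 without the first (adjusted p = 7.74e-05). RPL37 gave 0.05 and 0.25 (adjusted p = 0.816 and 0.00163), and RPS12 0.06 and 0.24 (adjusted p = 0.764 and 0.0045). Over members, the Spearman correlation of the selinexor log2 difference with transcript length was 0.359 (n = 81 genes, which share their libraries). With each library's trend with length removed, 6 members were called higher and 4 lower, beside 22.8% and 29.5% of all genes tested.

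The second comparison asks the same of cells depleted of XPO1 for 72 h. More members fell than rose with the deposited scaling, while with equal totals more rose than fell, as was the case for all genes tested. The median log2 difference from control siRNA was −0.07, beside 0.00 over 17616 genes tested, with 8 members called higher and 32 lower. Of all genes tested 25.9% were called higher and 28.6% lower. By subunit, 5 RPL genes rose and 17 of 48 fell (median −0.05), and 3 RPS genes rose and 15 of 33 fell (median −0.11). Most changes were small, between −0.46 and 0.41, with a median SE of 0.0365, compared with 0.107 for selinexor.

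The balance of these calls moved with the scaling of the libraries. With libraries rescaled to equal totals 24 members were higher and 16 lower, beside 34.4% and 20.7% of all genes, with a median of 0.02, and the median of all genes was 0.09. Every one of those 16 was also called lower with the deposited scaling, and all 8 genes called higher remained so. Leaving out control siRNA replicate 1, or XPO1 siRNA replicate 1, gave 5 members higher, beside 24.2% and 23.6% of all genes. Groups did not overlap for 10 members higher and 32 lower, beside 29.2% and 31.2% of all genes.

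RPS19 rose most. Its values were 24977, 24821 and 25532 with control siRNA and 33555, 32759 and 33498 with XPO1 siRNA, 1.32-fold higher without overlap. The log2 difference was 0.41 ± 0.03 (adjusted p = 1.4e-07), and 0.50 with equal totals. RPL37, a small zinc-binding 60S protein, had 26546, 27697 and 27360 and 31142, 29943 and 29866, a rise of 0.16 ± 0.03 (adjusted p = 0.0012). The other genes that rose were RPS4X (0.13), RPL11 (0.12), RPL37A (0.12), RPL23 (0.12), RPL10 (0.11) and RPS27 (0.09), with adjusted p-values from 0.0067 for RPS4X to 0.0354 for RPS27. RPL37A, RPL23 and RPL10 were named after their values were seen, to complete this count. The RPS4X row overlaps PIN4 on the other strand.

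RPL12, which forms the base of the stalk together with RPLP0, lies at chr9:130209953-130213685 (hg19, minus strand) and fell from 23493, 25644 and 24612 to 19092, 18200 and 18270. Its log2 difference was −0.41 ± 0.04 (adjusted p = 8.36e-07), and −0.32 with equal totals. RPLP0 fell from 75901, 79259 and 76705 to 66593, 63930 and 65607 (−0.24 ± 0.03, adjusted p = 5.2e-05). RPLP2, whose row overlaps PIDD on the other strand, also fell, with −0.21 ± 0.03 (adjusted p = 0.000152), and RPLP1 had −0.05 (adjusted p = 0.277). Of these stalk and stalk base genes, RPL12, RPLP0 and RPLP2 had no overlap between groups.

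RPSA, a 40S protein also known as the laminin receptor precursor, lies at chr3:39448180-39454034 (hg19, plus strand) and fell from 27730, 27223 and 26589 to 20796, 20757 and 21921 (−0.36 ± 0.03, adjusted p = 1.04e-06). Its 12 pseudogene rows held 72.5% of the summed value, and with them added the difference was −0.39. RPS2, at the mRNA entry channel, fell from 60342, 55172 and 57496 to 46593, 45058 and 47127 (−0.32 ± 0.04, adjusted p = 1.12e-05). RPS9 fell less, with −0.22 ± 0.03 (adjusted p = 2.98e-05). All 3 of these 40S genes remained lower with equal totals, with differences of −0.27, −0.23 and −0.13.

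Among further 60S genes, RPL39L fell from 1336, 1444 and 1304 to 972, 975 and 1018 (−0.46 ± 0.05, adjusted p = 4.67e-06). RPL27 had −0.31 ± 0.04 (adjusted p = 8.72e-06), and RPL8, near the peptidyl transferase centre, −0.27 ± 0.03 (adjusted p = 1.15e-05). RPL10A had −0.17 ± 0.03 (adjusted p = 0.000367). RPL5 fell with the deposited scaling (−0.10, adjusted p = 0.0286) and had −0.01 with equal totals (adjusted p = 0.85), while its partner RPL11 rose under both. RPS6 was not called (−0.06, adjusted p = 0.259), nor was RPS26 (−0.09, adjusted p = 0.425). With the trend with transcript length removed the counts were 15 higher and 17 lower, beside 26.3% and 32.3% of all genes tested.

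Put side by side, RPS19 was the one member called higher in both comparisons, RPL39L and RPL10A were called lower in both, and 36 members were called in neither. The other 4 genes that rose with selinexor were not called with XPO1 siRNA, and 30 of the 32 that fell with XPO1 siRNA were not called with selinexor. Without the first selinexor library 7 members were called higher in both comparisons, 6 lower in both, and 5 higher with selinexor and lower with XPO1 siRNA. The shares of all genes called jointly in these ways were not computed, so the joint counts have no background beside them. The 2 comparisons share no libraries. Across the 81 members their log2 differences had a Pearson r of 0.406 and a Spearman rho of 0.304, and without RPS19 0.322 and 0.28. Over 17332 genes tested in both, r was 0.643 and rho 0.607. The members share their libraries, so these are descriptions only.

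**Figure D4:**
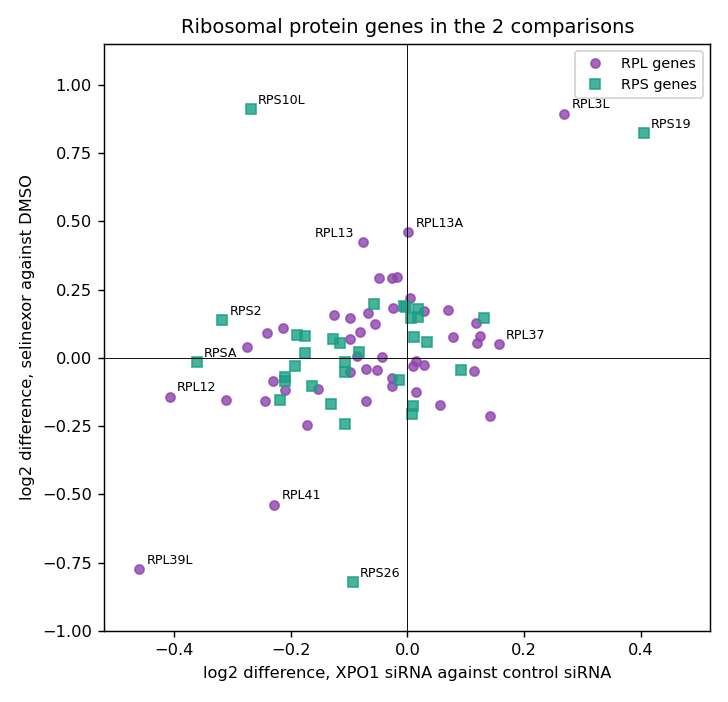
Log2 difference with XPO1 siRNA (x axis) against log2 difference with selinexor (y axis) for the 81 members, RPL genes as circles and RPS genes as squares. RPS19 is at the upper right (0.41, 0.82), near RPL3L, a gene of few reads, and RPL39L lies at the lower left (−0.46, −0.77). RPL13 and RPL13A are high with selinexor and near 0 with XPO1 siRNA.

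The difference of the 2 effects was tested over all 12 libraries. It was higher with selinexor for 11 members and lower for 2, beside 11.3% and 19.6% of the 17864 genes tested. RPL13 (0.50 ± 0.09, adjusted p = 0.00145), RPL13A (0.46 ± 0.08, adjusted p = 0.00117) and RPS2 (0.45 ± 0.09, adjusted p = 0.00177) had the greatest differences above 0 among the members called. With pseudogene rows added, which held 47.9% of its summed value in the selinexor table, RPS2 had 0.27 with selinexor (adjusted p = 0.0404) and a difference of effects of 0.62. RPL13 and RPL13A rose with selinexor and were near 0 with XPO1 siRNA, whereas RPS2 was 0.14 with selinexor and fell with XPO1 siRNA. RPS26 (−0.73 ± 0.24, adjusted p = 0.0379) and RPL39L (−0.31 ± 0.09, adjusted p = 0.0235) were the 2 lower ones. With pseudogene rows added the RPS26 difference of effects was −0.19 and its call was lost (adjusted p = 0.229). For RPL12 the difference was 0.27 ± 0.12 (adjusted p = 0.0995), so the fall with XPO1 siRNA was not shown to differ from the value with selinexor. Without the first selinexor library 38 members had a higher difference, beside 16.1% of all genes tested. Without selinexor replicate 3 there were 18, beside 12.2%, and without XPO1 siRNA replicate 2 there were 7, beside 8.67%. The number lower was 0 to 3 when any 1 library was left out, beside 15.4% to 26.9% of all genes tested. Dose, time, delivery and scaling all differ between the experiments and cannot be told apart from the agent.

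RPL and RPS genes were compared as sums in each library. The summed RPL value was 1.637, 1.646 and 1.632 times the summed RPS value in the DMSO libraries and 1.598, 1.593 and 1.604 times in the selinexor libraries. The groups did not overlap, with means of 1.638 ± 0.0072 and 1.598 ± 0.00556 (SD, n = 3), but no exact permutation test of 3 against 3 can go below 0.10. Without RPS19 the ratio was 1.699 ± 0.00841 and 1.701 ± 0.0225 and the groups overlapped. With siRNA the ratio was 1.617 ± 0.0101 in the control and 1.611 ± 0.00825 with XPO1 siRNA, and the groups overlapped. With pseudogenes summed with their parents, an alternative added after the data were seen, the siRNA groups had 1.599 ± 0.00721 and 1.645 ± 0.00489 without overlap, a difference of 0.0464 beside −0.0056 with the rows as deposited.

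**Figure D5:**
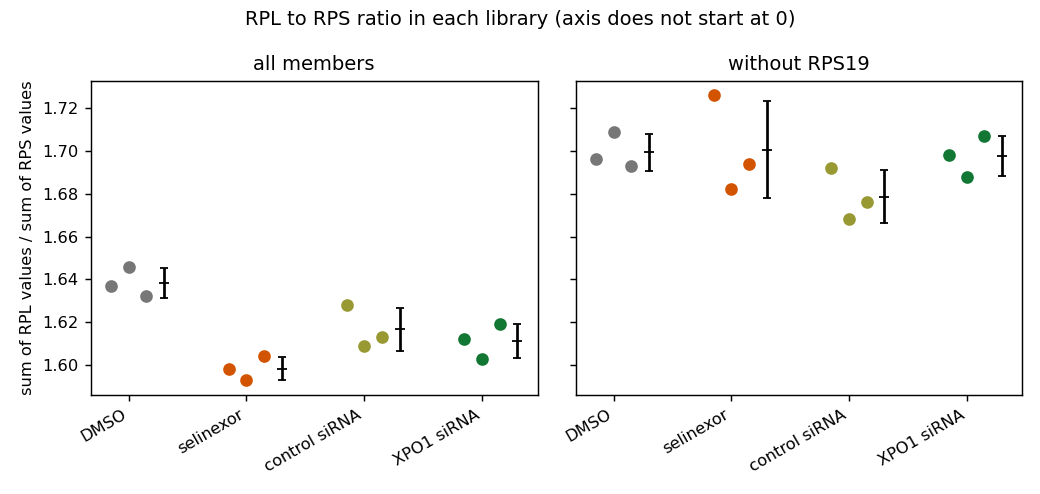
Summed RPL value divided by summed RPS value in each library (points) with mean ± SD (bars), over all members (left) and without RPS19 (right); the axis does not start at 0. The selinexor libraries lie at 1.593 to 1.604, below the DMSO libraries at 1.632 to 1.646, and the groups overlap once RPS19 is left out.

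Members were also described by features that the choice did not use. The 12 members on chromosome 19 had a median of 0.17 with selinexor, with 3 called higher and 0 lower, and the 69 on other chromosomes had −0.01, with 2 higher and 3 lower. Of all genes tested 22.9% were called higher and 26.3% lower. Without the first selinexor library the medians were 0.24 and 0.11. There, 8 were higher and 2 lower on chromosome 19, and 24 and 5 on other chromosomes, beside 28.2% and 33.9% of all genes. With XPO1 siRNA the medians were −0.05 and −0.07. The 28 members whose introns hold small nucleolar RNA genes had a median of 0.07 with selinexor and −0.04 with XPO1 siRNA, and the 53 without had 0.00 and −0.07. Among the 15 genes linked to Diamond-Blackfan anaemia, RPS19 rose and RPS26 fell with selinexor. With XPO1 siRNA 3 of the 15 rose and 6 fell, beside 25.9% and 28.6% of all genes. With XPO1 siRNA and equal totals 6 rose and 1 fell, beside 34.4% and 20.7%. Without the first selinexor library 7 of the 15 rose and 1 fell with selinexor, beside 28.2% and 33.9% of all genes. The members whose pattern over the 12 libraries was most like that of RPS19 were RPL19 (Pearson r of log2 differences 0.904), RPL13A (0.873), RPL27A (0.843), RPL7 (0.84) and RPL18 (0.823).

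Paralogs that the choice left out were called in both comparisons, all 5 of them. RPS27L, a paralog of RPS27 known to respond to p53, rose from 956 ± 13.3 with DMSO to 5123 ± 2273 with selinexor (SD, n = 3; log2 2.30, adjusted p = 0.00053) and from 1003 ± 107 to 4663 ± 239 with XPO1 siRNA (log2 2.22, adjusted p = 1.17e-11). RPL22L1, a paralog of RPL22, fell from 4526 ± 63.3 to 612 ± 193 with selinexor (log2 −2.94, adjusted p = 1.72e-05) and from 5070 ± 432 to 2207 ± 101 with XPO1 siRNA (log2 −1.20, adjusted p = 1.03e-09). RPL36AL and RPL26L1 fell in both comparisons, and RPL7L1 fell with selinexor and rose with XPO1 siRNA (−0.28 and 0.25). FAU, a 40S protein made as a fusion with a ubiquitin-like protein, fell with XPO1 siRNA (−0.21, adjusted p = 9.81e-05) and was not called with selinexor, and GNB2L1 (RACK1), also on the 40S subunit, was called in neither comparison.

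The mitochondrial ribosomal proteins, the group most like the members in role, fell more often than they rose, with equal totals too. Of 75 genes 48 fell and 0 rose with selinexor (median −0.43), and with XPO1 siRNA 58 fell and 4 rose (median −0.23). Of all genes tested, 26.3% were called lower and 22.9% higher with selinexor, and 28.6% and 25.9% with XPO1 siRNA. With selinexor, 43 of the 75 fell and 1 rose with equal totals, and 61 fell and 1 rose without the first selinexor library. Of all genes, 23.0% fell and 25.6% rose in the first of these fits, and 33.9% and 28.2% in the second. MRPL24 (−0.84 and −0.54), MRPS34 (−1.02 and −0.54) and MRPL11 (−0.73 and −0.54) fell in both. Of 30 ribosome biogenesis factors, which process and assemble the pre-ribosomal particles, 24 fell and 0 rose with selinexor (median −0.51). With XPO1 siRNA 13 fell and 2 rose (median −0.07), and 10 and 6 with equal totals (median 0.02), beside 20.7% and 34.4% of all genes. With selinexor, 19 of the 30 fell with equal totals and 25 without the first selinexor library, and 0 rose in either setting. NOP56, a core protein of box C/D small nucleolar particles, had −0.94 and −0.15, and UTP20 −0.94 and 0.01 (adjusted p = 0.833 for the last). Beside these, the cytosolic members' medians were 0.02 and −0.07.

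Dedicated chaperones carry new ribosomal proteins to the nucleolus. Of 7 such genes, 5 fell in each comparison and 0 rose, beside 26.3% (selinexor) and 28.6% (XPO1 siRNA) of all genes called lower. With equal totals 5 fell with selinexor, beside 23.0% of all genes, and 4 fell and 1 rose with XPO1 siRNA, beside 20.7% and 34.4%. Without the first selinexor library 6 fell. HEATR3, which serves RPL5, had −0.88 and −0.47 (adjusted p = 0.000107 and 6.39e-07), GRWD1, which binds RPL3, −0.72 and −0.22, and TSR2, the chaperone of RPS26, −0.60 (adjusted p = 0.00418) and −0.04 (adjusted p = 0.547). Of 7 factors of ribosomal protein promoters 6 fell with selinexor, among them GABPB1 (−1.07) and SP1 (−0.71), and with XPO1 siRNA 3 fell and 1, GABPB2, rose. With equal totals 5 of the 7 fell with selinexor, and 2 fell and 1 rose with XPO1 siRNA. Without the first selinexor library 6 fell and 1 rose.

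Other translation genes with TOP transcripts were mostly not called with the deposited scaling and all libraries. Of 15, 3 rose and 1 fell with selinexor (median 0.04), beside 22.9% and 26.3% of all genes tested. Without the first selinexor library 8 rose and 2 fell (median 0.17), beside 28.2% and 33.9%. With XPO1 siRNA 2 rose and 4 fell (median 0.02), beside 25.9% and 28.6%, and with equal totals 9 rose and 2 fell, beside 34.4% and 20.7%. EEF2, the translocase of elongation, rose with selinexor (0.39, adjusted p = 0.00938), as did PABPC1 (0.44, adjusted p = 0.0333), whereas NAP1L1 fell in both (−0.28 and −0.24). Of 12 genes that control TOP translation 8 fell and 2 rose with selinexor, and 4 fell and 4 rose with XPO1 siRNA (3 and 5 with equal totals). With selinexor, 6 of the 12 fell and 2 rose with equal totals, and 10 fell and 2 rose without the first selinexor library. EIF4EBP1, an mTOR target that holds back cap-dependent initiation, fell in both (−1.14 and −0.63, adjusted p = 3.65e-05 and 2.12e-08), and so did RHEB (−0.60 and −0.40), the activator of mTOR. TSC1 and TSC2, which restrain RHEB, rose in both (0.24 and 0.52, 0.40 and 0.38).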

How the data were processed

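Strand-specific total RNA libraries of IMR5 cells, 4 groups of 3, were grouped and numbered by sample title. The tools named in the submitters' processing notes are STAR (2.7.3a), Partek and DESeq2, and the build is hg19. The annotation used and the counting options were not given in sources used here. Deposited values are a signal that the authors made by dividing gene counts by a size factor per library, separately in each of the 2 tables. Between 62.0% and 66.8% of low values were whole multiples of a step, so the reads behind them were not recovered and a count test was not possible. The knockdown table's 3 further per-sample columns matched no sample used here and were not used, and its 25 symbols that had become dates were restored by coordinates.

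Genes with a mean of 10 or more were tested in R 4.3.3 by limma 3.58.1 (lmFit, eBayes with trend) on log2(value + 1), with two-sided p-values adjusted over all genes tested by Benjamini and Hochberg's method and a threshold of 0.05. Fold changes are on that scale. The difference of effects was fitted on 12 libraries with 4 group means. The steps were tested on simulated data. The members and lists were chosen with earlier results of these data known. Named genes were RPS19, RPL12, uncommon paralogs, the 5S, stalk, RPSA and RPS6 genes, the 4 highest and 4 lowest RPL and RPS genes per comparison, members called in both, the 3 highest and 3 lowest differences of effects, and the 5 most like RPS19, and from other lists up to 4 called genes each. Values of some genes that this rule names are not reported here. Transcript length, GC content and small nucleolar RNA genes came from GENCODE 29, matched by symbol for 81 of 81 members and for 85.2% and 86.3% of genes tested. Start sites came from RefSeq (GRCh38.p14). Alternatives were a pseudocount of 0.5 or 5, the filter dropped or raised to 50, equal totals, a 30% trimmed mean, a replicate block, no trend, removal of length or GC trends, and each library left out. Pseudogenes summed with their parent and ratios without RPS19 were added after the data were seen. Plots were drawn with matplotlib 3.10.9 and tables made with pandas 2.3.3 and numpy 2.4.6 under Python 3.11.15.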

Additional observations from a re-analysis of the deposited data

Results flagged for a closer look

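The test of the difference between the selinexor effect and the XPO1 siRNA effect was passed by 13 members, and these results stand out because the same contrast of treated against control gave different sizes in the 2 experiments. In 11 the difference was above 0, beside 11.3% of all genes tested. It was 0.50 for RPL13, 0.46 for RPL13A, 0.45 for RPS2, 0.42 for RPS19, 0.35 for RPSA, 0.34 for RPLP1, 0.33 for RPLP0, 0.32 for RPLP2, 0.32 for RPL18, 0.32 for RPL8 and 0.26 for RPS6, with adjusted p-values from 0.00117 for RPL13A to 0.0433 for RPS6. In 2, beside 19.6% of all genes tested, it was below 0, −0.73 for RPS26 and −0.31 for RPL39L (adjusted p = 0.0379 and 0.0235). With pseudogene rows added the RPS26 value was −0.19 (adjusted p = 0.229) and was no longer called. Of the 11, RPS19 had a rise in both experiments that was larger with selinexor, and RPSA, RPS2, RPL8, RPLP0 and RPLP2 fell with XPO1 siRNA and were not called with selinexor. Without the first selinexor library 38 members were called with a difference above 0 and 2 below, beside 16.1% and 26.9% of all genes tested.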

How the results depend on the processing

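Direction turned, with a call, for 6 members with selinexor: RPL8 and RPLP2 with the GC trend removed, and RPS27, RPL31, RPL39 and RPS18 without selinexor replicate 1. It also turned for the RPS27 and RPL39 differences of effects. RPL31, RPL39 and RPS18, named after their values were seen, had 0.17, 0.21 and 0.18 against −0.03, −0.07 and −0.03, and the RPL39 difference of effects 0.24 against −0.05. RPL15 and RPL24, called lower with XPO1 siRNA (−0.09 and −0.08), were not called and lay at 0.00 and 0.01 with equal totals, RPL24 also at 0.01 with the length trend removed. With selinexor, 22 members were called (19 higher) with equal totals, and 17 (10 higher, 7 lower) with the GC trend removed. With no intensity trend 5 were called (3 higher). Of all genes tested 25.6% were higher and 23.0% lower with equal totals. With the GC trend removed these shares were 26.1% and 34.1%, and with no intensity trend 21.6% and 23.4%. Leaving out 1 library gave 5 to 39 called, 3 to 32 higher and 2 to 7 lower, the upper ends without selinexor replicate 1. Of all genes 16.8% to 28.2% were then higher and 19.0% to 33.9% lower. With the GC trend removed RPL8 was −0.29 and RPLP2 −0.20, against 0.04 and 0.11. For RPS27 the range was −0.24 to 0.31, and for its difference of effects −0.33 to 0.22. With XPO1 siRNA, 24 were higher and 16 lower with equal totals, beside 34.4% and 20.7% of all genes. With the length trend removed they were 15 and 17, beside 26.3% and 32.3%. With no intensity trend they were 2 and 21 (23 called), beside 23.3% and 25.9%. With 1 library left out 5 to 10 were higher, beside 22.6% to 24.6%. The RPL and RPS medians were 0.0402 and −0.0163 with equal totals and 0.0129 and −0.0219 with the length trend removed. For the difference of effects, leaving out 1 library gave 8 to 40 called, 7 to 38 higher and 0 to 3 lower. Of all genes 8.66% to 16.1% were then higher and 15.4% to 26.9% lower. With no trend, with the GC trend removed and with pseudogenes summed, 1 was lower, the last without RPS26. The selinexor difference of the RPL to RPS ratio, −0.0402, was −0.0212 as a ratio of medians, −0.0497 without the most abundant members and 0.00147 without RPS19. The XPO1 siRNA difference, −0.0056, was −0.0339 without the most abundant members, 0.0192 without RPS19 and 0.0464 with pseudogenes summed. Causes were not tested.

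Replicate numbers did not pair the libraries: deviations of same-numbered libraries had correlations of −0.104 to 0.119. With a replicate block 6 members were higher and 2 lower with selinexor, 6 and 25 with XPO1 siRNA, and 10 and 2 for the difference of effects. Of all genes 22.0% and 25.8%, 25.2% and 27.7%, and 10.1% and 18.3% were called in the same order.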
